A study of Homo sapiens with 21 samples.

Results

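The proteasome genes described here are the rows of a human count table whose symbol begins with PSMA to PSMG followed by a digit. This rule, which uses no measured value, found 50 of 19683 gene symbols. Of these, 48 encode parts of the proteasome or proteins that assemble, activate or regulate it. The other 2, PSMC3IP and PSME3IP1, are named after binding a proteasome protein and are not subunits, so every count of proteasome genes below leaves them out. The 48 were 14 constitutive core genes (PSMA and PSMB), 20 cap genes (PSMC and PSMD), 5 immune forms (PSMB8, PSMB9, PSMB10, PSME1 and PSME2), 3 other activators and regulators, 4 assembly chaperones of the core and 2 tissue forms. The tissue forms, PSMA8 of testis and PSMB11 of thymus, were at 0 counts in all 21 libraries, which allows up to 0.0691 to 0.16 CPM (counts scaled to a common library size) depending on the library, for counting error only. PSMG4, an assembly chaperone, had 0 to 8 counts a library. The remaining 45 proteasome genes had enough counts to be tested.

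The libraries came from HepG2/C3A, a human liver tumour line of epithelial-like cells, with the unmodified (WT) genotype in all groups and the same growth medium. The control group was the 2D monolayer, and 6 groups were 3D spheroids, formed from monolayer cells made to aggregate on ultra-low attachment plates, grown on in a ClinoReactor (a vessel for long-term 3D culture) and collected at Days 3, 7, 10, 14, 21 and 28. Each of the 7 groups had 3 libraries labelled as biological replicates. There was 1 monolayer group, so all spheroid days were compared with the same 3 control libraries and no monolayer of matched culture age was part of the design. Expression was measured by TempO-Seq, in which pairs of short detector oligos are ligated on each target RNA and counted, so a level compares libraries and not genes.

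A library held between 18760232 and 43443262 counts (median 31997292). All 6 hepatocyte markers were called higher in spheroids at Day 3, against 40.1% of all genes tested. Their summed level rose from 7670 to 8540 CPM in the monolayer libraries to 33800 to 35000 CPM. Of 8 immune cell markers 2 were at 0 everywhere, PTPRC among them, while CD14 rose from 0.102 to 0.13 CPM to 1.81 to 2.18 CPM at Day 3 and the list's sum, mostly CD68, was 49.0 to 55.7 CPM in the monolayer and 61.0 to 67.3 CPM at Day 3. Summed endothelial markers stayed at or under 1.16 CPM, and summed fibroblast and stellate markers at or under 3.29 CPM. The sum of 7 proliferation markers was 54.5 to 61.4 CPM in the monolayer, 952 to 980 CPM at Day 3, 1140 to 1210 CPM at Day 10 and 183 to 201 CPM at Day 28. In bulk RNA, fewer cells of a type and less RNA per cell cannot be told apart.

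The proteasome is the barrel-shaped protease that degrades most short-lived and misfolded proteins of a cell after they have been tagged with ubiquitin. Its core is a stack of alpha and beta rings with the protease sites of PSMB5, PSMB6 and PSMB7 inside, and its cap binds ubiquitin, removes it and unfolds the substrate with a ring of ATPases. Interferon-gamma is known to switch on PSMB8, PSMB9 and PSMB10, which replace the constitutive protease subunits in newly built cores and favour peptides that fit major histocompatibility complex class I molecules. The transcription factor NFE2L1 is known to raise subunit genes together when proteasome activity is short.

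At Day 3, 18 of the 45 tested proteasome genes were higher than in the monolayer and 12 were lower, at a Benjamini-Hochberg adjusted p under 0.05 in edgeR's quasi-likelihood test. Over all 12345 genes tested, 40.1% were higher and 37.8% lower in that comparison, so the share of higher calls, 40.0%, was near the background and the share of lower calls, 26.7%, was below it. Changes of 2-fold or more were called in 8 of the 45 and in 45.5% of all genes. PSMB10 is among the 18 and among the 8, although it had enough counts to be tested only through the groups where it was higher. Later counts of called proteasome genes also include PSMB10 where it was called. The median size of the log2 fold change, whatever its sign, was 0.44 in the proteasome genes and 0.95 in all genes. At Day 7, 11 were higher and 22 lower (all genes, 40.4% and 38.4%), at Day 10, 20 and 7 (40% and 37.9%), at Day 14, 14 and 11 (38.7% and 35.7%), and at Day 21, 14 and 16 (39.3% and 35.1%). By Day 28, 11 were higher and 15 lower, against 38.5% and 34.8% of all genes, and 6 of the 45 were changed by 2-fold or more, against 37.7%. The balance of higher and lower thus turned from day to day. Library size scaling moved it at Day 28 to 19 higher and 8 lower. The same scaling moved the median log2 fold change of all genes up by 0.21 at that day. The summed counts of the proteasome genes made up 0.598% ± 0.006 (SD, n = 3) of a monolayer library and 0.598% ± 0.011 of a Day 28 library, with 0.557% ± 0.017 at Day 7 and 0.699% ± 0.013 at Day 10 as the lowest and highest group means.

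**Figure D1:**
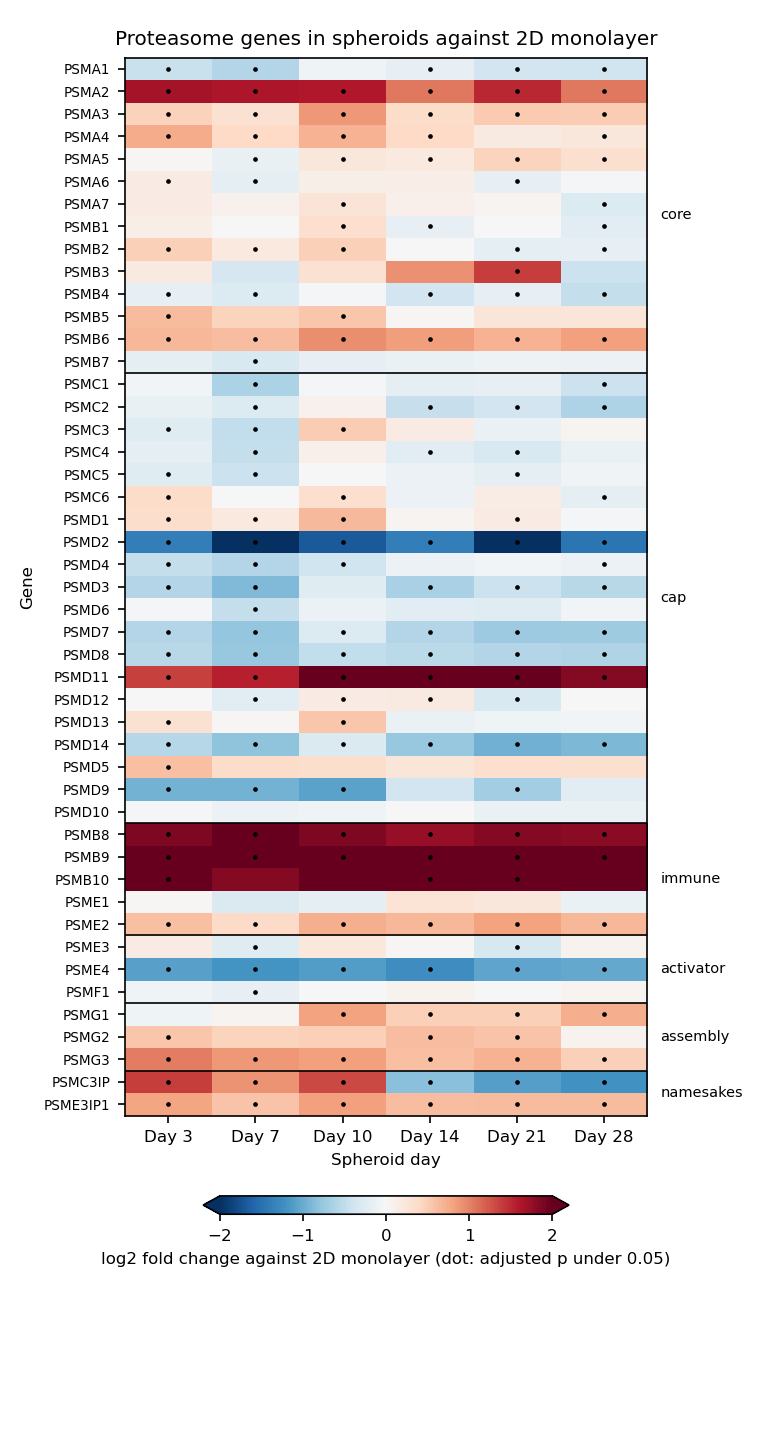
Log2 fold change of the 45 tested proteasome genes and the 2 namesakes (rows, by class) in spheroids against the 2D monolayer at each day (columns). Colours saturate at 2 in either direction and dots mark an adjusted p under 0.05. PSMB8 and PSMB9 are dark red at all 6 days, PSMD2 and PSME4 are blue and PSMD11 and PSMA2 are red throughout, and most other core and cap genes are pale.

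The immune forms PSMB9 and PSMB8 were well above their monolayer level at every spheroid day. PSMB10 had too few monolayer counts for a fitted fold change and is given by its counts below. Of the other 4 immune forms, PSMB9, PSMB8 and PSME2 were higher and none was lower both at Day 3 and at Day 28. Over all genes, 40.1% were higher and 37.8% lower at Day 3, and 38.5% and 34.8% at Day 28. Their promoters are shown first, with that of TAP1, a peptide transporter subunit that feeds class I molecules and whose window overlaps that of PSMB9. The windows run from 250 bases before to 50 bases after the start in RefSeq (GRCh38.p14), each on its gene's strand, at chr6:32853942-32854241 (plus) for PSMB9, chr6:32853655-32853954 (minus) for TAP1, chr6:32844630-32844929 (minus) for PSMB8 and chr16:67936801-67937100 (minus) for PSMB10. Capitals mark GAAA followed by any 2 bases and GAAA (the core of an interferon response element), TGACNNNGC (the core of an antioxidant response element) and CCAAT, each searched on both strands.
PSMB9: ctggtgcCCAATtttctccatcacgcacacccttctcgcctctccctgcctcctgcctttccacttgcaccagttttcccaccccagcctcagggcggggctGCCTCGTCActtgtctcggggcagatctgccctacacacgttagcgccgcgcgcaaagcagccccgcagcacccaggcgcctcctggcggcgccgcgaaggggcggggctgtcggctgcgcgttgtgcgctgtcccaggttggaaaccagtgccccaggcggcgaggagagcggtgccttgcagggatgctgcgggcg
TAP1: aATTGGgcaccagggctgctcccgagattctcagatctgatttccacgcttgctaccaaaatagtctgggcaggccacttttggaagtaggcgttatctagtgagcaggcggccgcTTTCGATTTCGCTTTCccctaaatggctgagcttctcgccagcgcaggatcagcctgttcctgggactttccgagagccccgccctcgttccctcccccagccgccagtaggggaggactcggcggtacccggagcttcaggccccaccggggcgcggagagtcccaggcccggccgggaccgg
PSMB8: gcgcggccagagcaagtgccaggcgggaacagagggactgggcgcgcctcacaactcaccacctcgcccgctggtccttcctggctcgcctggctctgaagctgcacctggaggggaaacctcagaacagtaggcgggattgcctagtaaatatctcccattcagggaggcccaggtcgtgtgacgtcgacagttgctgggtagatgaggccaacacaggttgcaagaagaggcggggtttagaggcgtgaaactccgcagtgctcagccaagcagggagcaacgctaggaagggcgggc
PSMB10: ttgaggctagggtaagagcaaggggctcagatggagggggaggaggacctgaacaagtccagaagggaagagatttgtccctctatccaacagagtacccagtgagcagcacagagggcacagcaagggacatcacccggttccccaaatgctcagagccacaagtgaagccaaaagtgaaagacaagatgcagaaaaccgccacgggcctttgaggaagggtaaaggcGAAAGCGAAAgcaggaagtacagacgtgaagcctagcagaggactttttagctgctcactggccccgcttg
The PSMB9 and TAP1 windows overlap by 13 bases, and their starts lie 488 bases apart on opposite strands. TAP1's window held the interferon response letters as 2 overlapping matches on the reverse strand, TTTCGATTTC and TTTCGCTTTC, and PSMB10's held GAAAGCGAAA beginning 21 bases before its start. Across 35116 promoters of the same length, 3.57% held this motif. Among the 39 proteasome genes with a promoter in the table it was present in 5, namely PSME1, PSME2 and PSMB10 of the 5 immune forms and PSMB4 and PSMA4 of 10 core genes, and in none of 19 cap genes. PSMB8's window held none of the capitalised motifs. PSMB9's window held no interferon response letters. The 2 TAP1 matches lie between the starts of PSMB9 and TAP1, beyond the upstream edge of PSMB9's window. A match of letters is a description and not a measured binding site.

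PSMB9, the immune partner of PSMB6, had few counts in the monolayer, at 0.339, 0.534 and 0.455 CPM (8, 21 and 14 counts). At Day 3 its 3 libraries were at 7.98, 8.99 and 10.9 CPM, at Day 7 at 13.4, 12.3 and 12.2 CPM and at Day 10 at 13.2, 10.5 and 9.26 CPM. It was lower again at Day 14, with 4.67, 6.19 and 4.37 CPM, and at Day 28, with 2.72, 2.54 and 3.53 CPM. Every spheroid library lay above every monolayer library, and the libraries of Days 14 and 28 did not overlap those of Days 3 to 10. The log2 fold change was 4.33 ± 0.24 (SE) at Day 3 (adjusted p = 1.7e-17) and 2.67 ± 0.26 at Day 28 (adjusted p = 5.77e-11). From Day 10 to Day 14 PSMB9 fell by 1.11 ± 0.17 on the log2 scale (adjusted p = 2.7e-06), and it was lower by 1.66 ± 0.19 at Day 28 than at Day 3 (log2 fold change -1.66, adjusted p = 2.98e-09).

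PSMB8, the immune partner of PSMB5, was above the monolayer at every spheroid day. It was at 6.19, 6.11 and 6.57 CPM in the monolayer and at 20.7, 27.4 and 20.3 CPM at Day 3. Day 7 had the highest group mean, with 25.6, 31.4 and 30.5 CPM, and Day 28 had 17.6, 25.9 and 21.8 CPM. No spheroid library reached down to the monolayer range, and the Day 7 libraries lay above all of Days 14 and 21. The log2 fold change against the monolayer was 1.86 ± 0.14 at Day 3 (adjusted p = 4.44e-14) and 1.8 ± 0.14 at Day 28 (adjusted p = 1.63e-13), and Day 28 against Day 3 gave -0.06 ± 0.13 (adjusted p = 0.73). A call of lower at Day 10 than at Day 7, -0.34 ± 0.12, was lost when Day 7 replicate 2 or 3 or Day 10 replicate 1 or 2 was left out (log2 fold changes -0.28, -0.29, -0.23 and -0.35).

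PSMB8 and PSMB9 are neighbours in the class II region of the major histocompatibility complex, at chr6:32840717-32844703 on the minus strand and chr6:32844136-32859585 on the plus strand in GENCODE's GRCh38 annotation. The annotated spans overlap, and the sources used here do not state whether counting used strand. TAP2 (chr6:32821833-32838780) and TAP1 (chr6:32845209-32853978) lie in the same stretch, with TAP1 inside the annotated span of PSMB9. TAP1 was at 0.508, 0.254 and 0.748 CPM in the monolayer and 2.71, 4.15 and 2.83 CPM at Day 3, a log2 fold change of 2.71 ± 0.34, and 1.6 ± 0.36 at Day 28. TAP2 rose by 1.92 ± 0.12 at Day 3 and by 2.65 ± 0.12 at Day 28. PSMB9 and TAP1 thus had lower fold changes at Day 28 than at Day 3 and TAP2 a higher one, and the difference between the genes was not tested.

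PSMB10, the immune partner of PSMB7, is on another chromosome, at chr16:67934502-67937087, and was close to the detection limit throughout. The monolayer libraries held 0, 2 and 1 counts and the Day 3 libraries 34, 20 and 12 counts (0.845, 0.692 and 0.425 CPM). Summed over 3 libraries and scaled to library size, Day 3 was 21.2 times the monolayer, with an exact 95% interval of 6.93 to 105 that covers counting error only. Group means were lower at each later day, with 0, 11 and 3 counts at Day 7 and 4, 6 and 3 at Day 10. Day 14 had 11, 15 and 6 counts (ratio to the monolayer 10.9, interval 3.4 to 55.4). Day 21 had 5, 6 and 15 (ratio 8.16, interval 2.5 to 42.1). The highest libraries of Days 14 and 21, at 0.524 and 0.479 CPM, lay above the lowest Day 3 library. Day 28 had 3, 4 and 4 counts, a ratio of 4.36 (interval 1.15 to 24.4). The gene passed the filter on low counts through the groups where it was higher, and its fitted fold change depends on the prior count.

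PSME1 and PSME2 encode the alpha and beta subunits of PA28, an activator ring that opens the core and is also induced by interferon-gamma. They lie side by side on chromosome 14. PSME2 went from 13.8, 11.6 and 11.3 CPM in the monolayer to 18.9, 17.9 and 18.4 CPM at Day 3 and 18.6, 19.0 and 20.3 CPM at Day 28, without overlap. Its log2 fold change was 0.6 ± 0.11 at Day 3 (adjusted p = 8.46e-06) and 0.66 ± 0.11 at Day 28 (adjusted p = 2.02e-06). PSME1 stayed low and scattered, at 1.91, 3.56 and 2.54 CPM in the monolayer, 3.13, 2.66 and 2.48 CPM at Day 3 and 2.03, 2.46 and 2.83 CPM at Day 28. Its groups overlapped and no change was called at Day 3 or Day 28 (0.03 ± 0.26 and -0.14 ± 0.27), errors that leave room for a change like that of PSME2 at Day 3. The difference between these 2 genes was not tested.

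**Figure D2:**
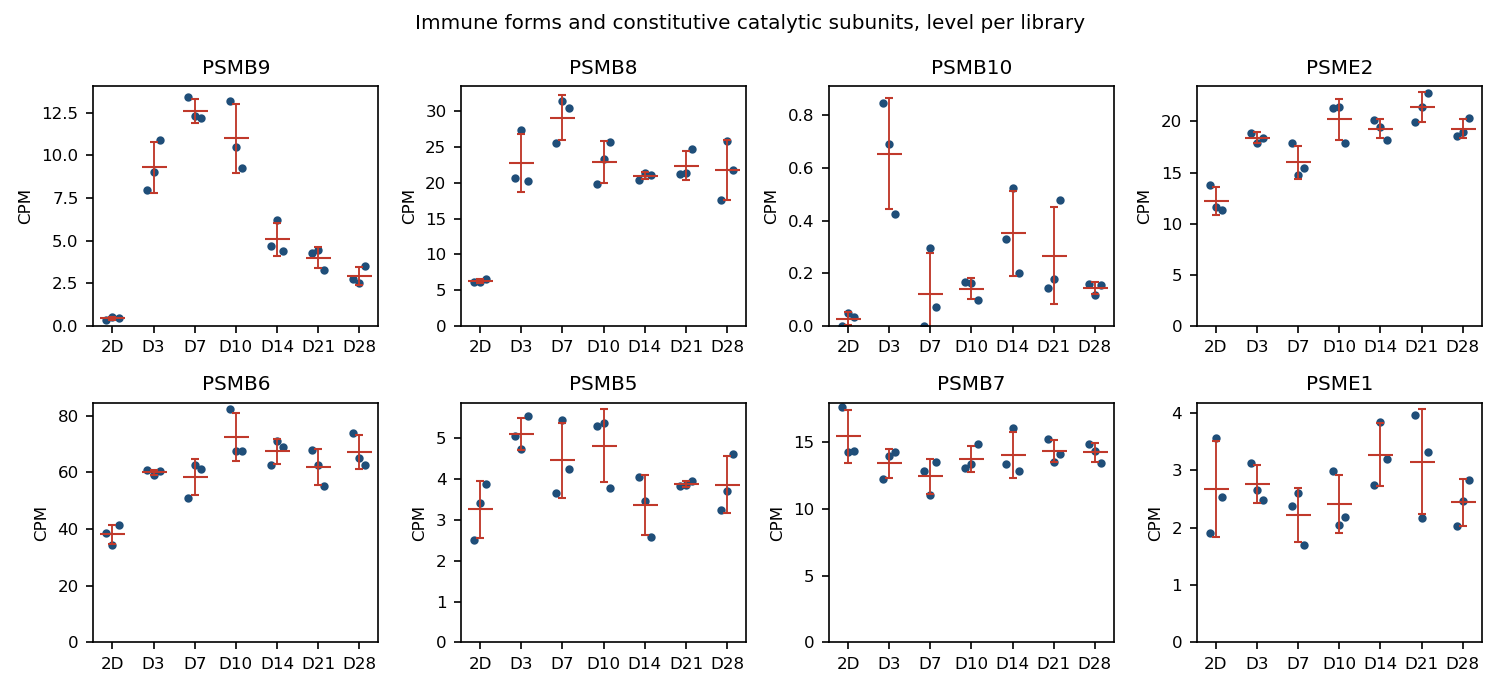
Level in CPM (y axis, from 0, own scale in each panel) of the immune forms and the 3 constitutive protease subunits in each library, by group (x axis). Points are libraries, and red lines show the mean and SD of 3. PSMB9 and PSMB8 lie above their monolayer values in every spheroid library, PSMB9 drops between Day 10 and Day 14, PSME1 overlaps the monolayer range at each day, and PSMB7 lies below it at Day 7 alone.

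The constitutive protease subunits took separate courses. PSMB6, the caspase-like subunit, went from 38.6, 34.4 and 41.3 CPM in the monolayer to 60.7, 59.0 and 60.6 CPM at Day 3 and 74.1, 65.1 and 62.7 CPM at Day 28, without overlap. Its log2 fold change was 0.66 ± 0.094 at Day 3 (adjusted p = 1.57e-07) and 0.82 ± 0.095 at Day 28 (adjusted p = 2.67e-09). PSMB5, the chymotrypsin-like subunit, was at 2.5, 3.41 and 3.87 CPM in the monolayer, 5.05, 4.74 and 5.53 CPM at Day 3 and 3.25, 3.71 and 4.62 CPM at Day 28. It rose at Day 3 (0.64 ± 0.21, adjusted p = 0.00684), but without monolayer replicate 1 the value was 0.46 with an adjusted p of 0.0656, and at Day 28 its libraries overlapped the monolayer (0.24 ± 0.22). PSMB7, the trypsin-like subunit, had 17.6, 14.2 and 14.3 CPM in the monolayer, 12.2, 13.9 and 14.2 CPM at Day 3 and 14.8, 14.3 and 13.4 CPM at Day 28, with no call at either day (-0.19 ± 0.12 and -0.11 ± 0.12). At Day 7, when PSMB8 and PSMB9 were highest, its libraries held 12.8, 11.0 and 13.5 CPM, all below the monolayer. PSMB7 was called lower there (-0.3 ± 0.12, adjusted p = 0.0211), and not under library size scaling (-0.13).

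Set against their partners in the same library, PSMB8 and PSMB9 gained. The log2 ratio of PSMB8 to PSMB5 was 0.96 ± 0.29 (SD, n = 3, prior count of 2) in the monolayer and 2.13 ± 0.34 at Day 3, 2.71 ± 0.17 at Day 7 and 2.47 ± 0.28 at Day 28. For PSMB9 over PSMB6 it was -6.25 ± 0.37 in the monolayer, -2.19 ± 0.24 at Day 7 and -4.5 ± 0.33 at Day 28. Differences of these ratios between groups are interpretable, while their absolute size depends on the detector oligos. The lowest spheroid ratio of either pair exceeded the highest monolayer ratio, and the PSMB9 ratio gave back part of its gain after Day 10 while the PSMB8 ratio did not. No test was run on these ratios.

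Among the 14 constitutive core genes, 7 were higher and 2 lower at Day 3, and 5 higher and 5 lower at Day 28. Of the 20 cap genes, 5 were higher and 9 lower at Day 3, and 1 higher and 9 lower at Day 28. As shares, 50% of the core and 25% of the cap were higher at Day 3, against 40.1% of all genes, and 14.3% and 45.0% were lower, against 37.8%. At Day 28, 35.7% of the core and 5.0% of the cap were higher, against 38.5%, and 35.7% and 45.0% were lower, against 34.8%. The shares of cap genes called lower and of core genes at Day 28 were thus near the background. The median log2 fold change at Day 3 was 0.18 for the core and -0.16 for the cap, beside 0.06 for all genes, and at Day 28 it was -0.08 and -0.13, beside 0.08. The sign of the cap median depended on how libraries were scaled, while its place below the median of all genes did not. With library size alone in place of TMM scaling, which moved the median of all genes up by 0.22 at Day 3 and 0.21 at Day 28, the cap had 6 higher and 7 lower with a median of 0.05 at Day 3, and 6 higher and 5 lower with a median of 0.08 at Day 28, beside 0.27 and 0.3 for all genes. The core then had 10 higher and 1 lower at Day 3 (median 0.4) and 6 higher and 2 lower at Day 28 (median 0.14). Under both scalings the core median lay above the cap median at Days 3 and 28. The share of higher among called core genes thus moved with the scaling, and no test of core against cap was run.

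**Figure D3:**
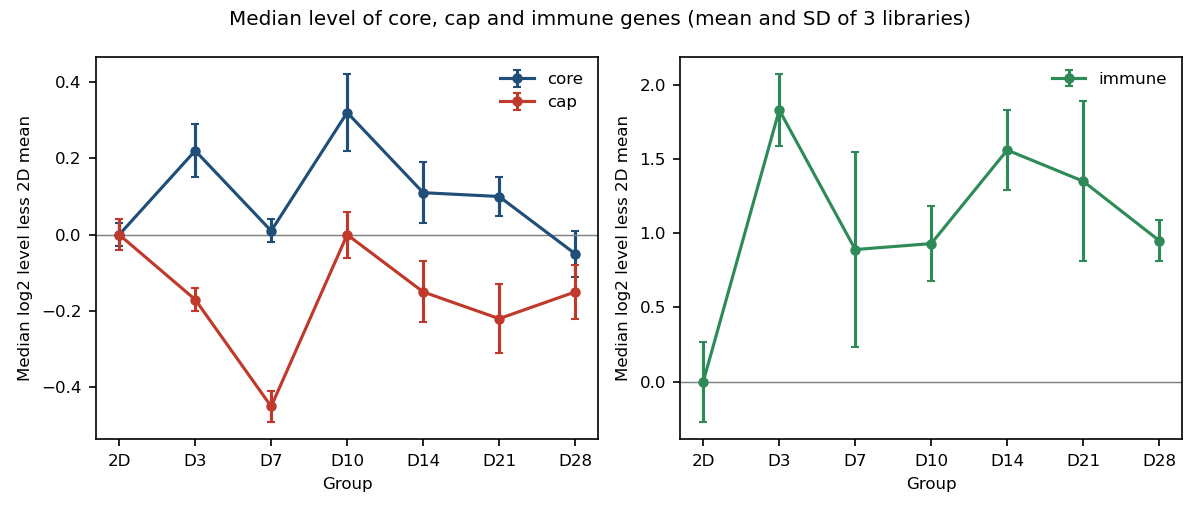
Median over the genes of a class of the log2 level less the gene's monolayer mean (y axis), by group (x axis), for core and cap genes (left) and the 5 immune forms (right, wider scale). Points are means of 3 libraries and bars their SD. Core and cap both dip at Day 7 and peak at Day 10, the core stays above the cap at every spheroid day, and the immune median is above the monolayer at each day. For the plot 0.1 CPM was added before the log. The height of the immune curve depends on this offset through PSMB10, which is close to the detection limit. At Day 28 the curve is at 0.95, while the median fitted log2 fold change of the 5 immune forms was 1.8.

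The alpha ring, which gates the core, had 4 of 7 genes higher and 1 lower at Day 3, beside 40.1% and 37.8% of all genes. PSMA2 rose most, from 1.06, 0.891 and 1.59 CPM in the monolayer to 4.82, 3.15 and 3.15 CPM at Day 3, with 2.35, 3.13 and 1.75 CPM at Day 28. Its libraries did not overlap the monolayer at either day, and the log2 fold change was 1.66 ± 0.29 (adjusted p = 5.95e-06) and 1.05 ± 0.31 (adjusted p = 0.00284). It has 3 named pseudogenes in the annotation, so a share of its counts may belong to a copy. PSMA4 (0.74 ± 0.085), PSMA3 (0.46 ± 0.062) and PSMA6 (0.17 ± 0.067) were also higher at Day 3. PSMA1 went the other way, from 804, 722 and 720 CPM to 545, 533 and 581 CPM at Day 3 and 583, 564 and 559 CPM at Day 28. That is a log2 fold change of -0.44 ± 0.062 at Day 3 and -0.4 ± 0.062 at Day 28, without overlap and lower under library size scaling as well (-0.22 and -0.18). PSMA5 (0.02 ± 0.057) and PSMA7 (0.17 ± 0.078) were not called at Day 3.

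In the beta ring, 3 of 7 constitutive genes were higher at Day 3, namely PSMB5, PSMB6 and PSMB2, and PSMB4 was lower. Over all genes 40.1% were higher and 37.8% lower there, so the share of higher calls was near the background. PSMB2, which carries no protease site, was at 276, 285 and 280 CPM in the monolayer, 401, 387 and 387 CPM at Day 3 and 258, 245 and 243 CPM at Day 28. Its Day 3 libraries lay above the monolayer and its Day 28 libraries below it, a log2 fold change of 0.48 ± 0.068 and then -0.17 ± 0.069. PSMB4 had 566, 527 and 523 CPM in the monolayer, 463, 460 and 514 CPM at Day 3 and 439, 374 and 347 CPM at Day 28. It was lower at Day 28 (-0.48 ± 0.069, adjusted p = 2.25e-07), while the small Day 3 difference (-0.17 ± 0.069) turned to 0.05 under library size scaling. That Day 3 call was also lost without monolayer replicate 1 or Day 3 replicate 1 or 2 (-0.16, -0.15 and -0.15).

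PSMB3 was the one core gene whose replicates scattered widely. Day 14 held 6.5, 26.3 and 22.0 CPM, Day 21 held 28.0, 23.4 and 24.1 CPM, and Day 28 held 12.8, 4.68 and 4.85 CPM, beside 14.6, 6.97 and 7.97 CPM in the monolayer. Day 21 was thus the only group whose libraries all lay above every monolayer library, and PSMB3 has 1 named pseudogene. The fitted errors reflect this, with 0.18 ± 0.51 at Day 3 and -0.43 ± 0.54 at Day 28, neither of them called. PSMB3 was called higher at Day 21 than in the monolayer, and lower at Day 28 than at Day 21, under both scalings. With library size scaling these log2 fold changes were 1.54 (adjusted p = 0.012, edgeR) and -1.76 (adjusted p = 0.0226). The remaining beta gene, PSMB1, was not called at Day 3 (0.13 ± 0.076) and was called lower at Day 28 with overlapping libraries (-0.21 ± 0.076).

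PSMD11 and PSMD2 moved far in opposite directions within the cap. PSMD11, a lid subunit, went from 2.37, 2.9 and 2.73 CPM in the monolayer to 7.16, 6.71 and 6.95 CPM at Day 3, 12.1, 12.1 and 14.8 CPM at Day 21 and 9.55, 9.33 and 9.94 CPM at Day 28. All spheroid libraries were above the monolayer, with a log2 fold change of 1.37 ± 0.15 at Day 3 (adjusted p = 8.41e-10) and 1.83 ± 0.15 at Day 28 (adjusted p = 1.08e-12). PSMD2, the base scaffold where ubiquitin shuttles dock, was at 11.8, 16.7 and 17.3 CPM in the monolayer, 6.19, 5.92 and 5.42 CPM at Day 3, 3.34, 3.88 and 4.06 CPM at Day 7 and 3.41, 5.29 and 7.76 CPM at Day 28. Each spheroid library was below each monolayer library, with a log2 fold change of -1.39 ± 0.22 (adjusted p = 2.55e-06) at Day 3 and -1.46 ± 0.23 (adjusted p = 1.69e-06) at Day 28. Both are subunits of the same particle, PSMD11 at chr17:32444261-32483318 and PSMD2 at chr3:184298709-184309054.

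Of the 8 lid genes, which form the arm that removes ubiquitin, 4 were lower at Day 3 and 2 higher, beside 37.8% and 40.1% of all genes. PSMD14, the deubiquitinase of the lid, was at 136, 142 and 140 CPM in the monolayer, 95.5, 91.2 and 94.1 CPM at Day 3 and 77.2, 77.1 and 69.2 CPM at Day 28, without overlap. PSMD7, PSMD8, PSMD14 and PSMD3 had log2 fold changes between -0.59 and -0.56 at Day 3, and all 4 were also lower there under library size scaling (-0.37 to -0.34). At Day 28 PSMD14 had reached -0.9 ± 0.066 and PSMD7 -0.71 ± 0.07. PSMD13 was called higher at Day 3 (0.3 ± 0.11) from 19.6, 25.7 and 21.2 CPM to 27.2, 29.1 and 25.6 CPM, a call that leaving out monolayer replicate 1 or 3 or Day 3 replicate 2 ended (0.19, 0.26 and 0.24).

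The 6 ATPases of the base, PSMC1 to PSMC6, were lowest against the monolayer at Day 7, when 5 were called lower and none higher (median -0.45), and 4 lower and 1 higher under library size scaling. With TMM scaling, 38.4% of all genes were lower and 40.4% higher at Day 7. PSMC1 had the lowest value there (-0.63 ± 0.17). At Day 28, 3 ATPases were lower, beside 34.8% of all genes, with PSMC2 lowest (-0.61 ± 0.073). Under library size scaling 1 was lower and 2 higher. At Day 3 the log2 fold changes of the 6 ATPases lay between -0.24 and 0.37, with PSMC6 higher and PSMC3 and PSMC5 lower. Under library size scaling both lower calls were lost (-0.02 each). PSMD4, a ubiquitin receptor, was lower at Day 3 under both scalings (-0.47 ± 0.056, and -0.25), while at Day 28 it was called lower by a small margin (-0.12 ± 0.056, adjusted p = 0.0493) and not under library size scaling (0.09). Of the 3 chaperones that assemble the base, PSMD9 was at 4.11, 5.04 and 5.24 CPM in the monolayer and 2.49, 2.04 and 2.94 CPM at Day 3, a log2 fold change of -0.95 ± 0.23. At Day 14 PSMD9 was back at 3.44, 4.16 and 3.44 CPM, a rise of 0.68 ± 0.23 over Day 10 that was no longer called without Day 10 replicate 2 or 3 or Day 14 replicate 2 (0.55, 0.55 and 0.59). PSMD5 was called higher at Day 3 with overlapping libraries (0.6 ± 0.22), and PSMD10 showed no call (-0.03 ± 0.099).

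Activators outside PA28 alpha and beta included one large change. PSME4, the nuclear activator PA200, fell from 564, 520 and 549 CPM in the monolayer to 261, 264 and 246 CPM at Day 3 and stayed there, with 259, 262 and 277 CPM at Day 28. All 18 spheroid libraries were under 300 CPM and clear of the monolayer range. The log2 fold change was -1.08 ± 0.057 at Day 3 (adjusted p = 6.22e-18) and -1.03 ± 0.057 at Day 28 (adjusted p = 3.42e-17), and no difference between the 2 days was called (0.05 ± 0.057, adjusted p = 0.476). PSME3, the nuclear PA28 gamma, had 18.6, 25.2 and 23.7 CPM in the monolayer, 27.5, 24.0 and 24.8 CPM at Day 3 and 20.4, 27.1 and 23.4 CPM at Day 28, overlapping at both days. PSMF1, a regulator that binds the core, ranged from 173 to 198 CPM in the monolayer and from 161 to 206 CPM in the spheroids. Its Day 3 value of -0.08 ± 0.064 was not called and became 0.14, called higher, under library size scaling.

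The chaperones that build the core took different courses. PSMG3 doubled its level, from 24.1, 23.1 and 27.1 CPM in the monolayer to 52.0, 50.2 and 49.7 CPM at Day 3, and stood at 37.6, 30.4 and 36.2 CPM at Day 28. The log2 fold change was 1.03 ± 0.095 at Day 3 (adjusted p = 1.12e-11) and 0.48 ± 0.096 at Day 28, with no overlap. PSMG1, which acts with PSMG2 on the alpha ring, had 29.1, 21.5 and 27.0 CPM in the monolayer and 21.5, 23.8 and 27.8 CPM at Day 3, and then 46.8, 45.3 and 42.3 CPM at Day 10 and 48.8, 38.0 and 41.2 CPM at Day 28. So PSMG1 rose between Day 7 and Day 10 (0.75 ± 0.18, adjusted p = 0.00375) and not at the change to spheroid culture (-0.09 ± 0.18 at Day 3). PSMG2, at 2.1 to 4.91 CPM in all libraries, was called higher at Day 3 (0.56 ± 0.24) with overlapping libraries, a call lost without monolayer replicate 2 or 3 or Day 3 replicate 1 (0.44, 0.42 and 0.41).

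**Figure D4:**
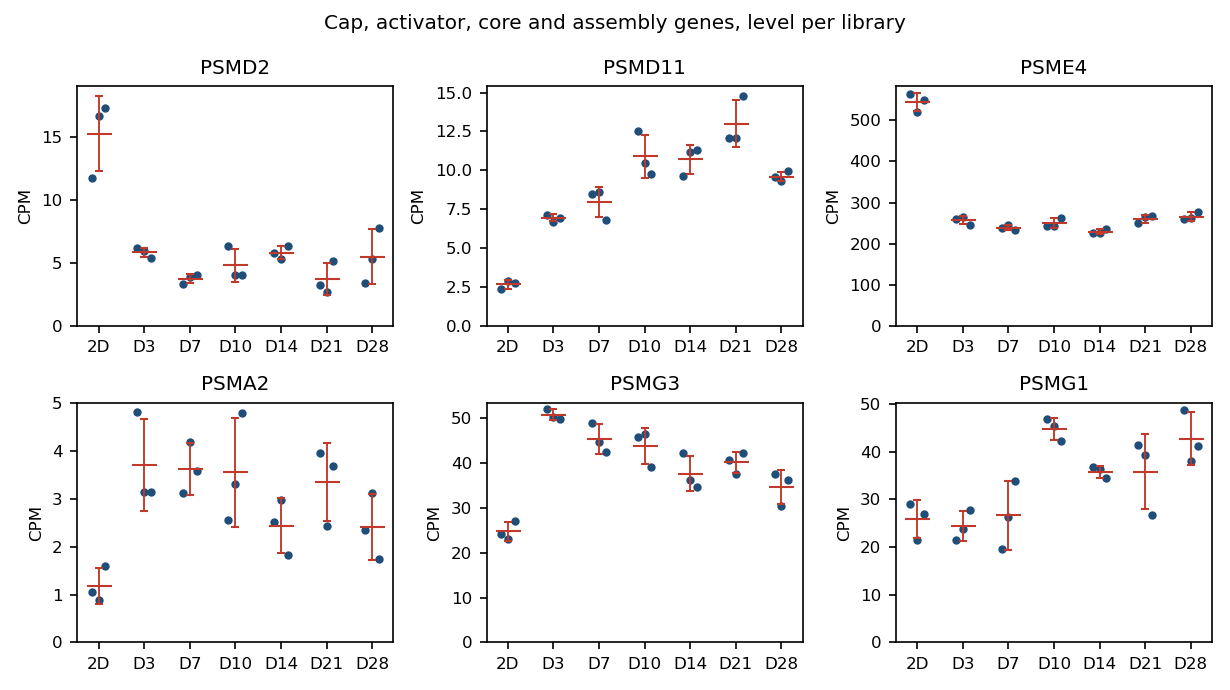
Level in CPM (y axis, from 0, own scale in each panel) of PSMD2, PSMD11, PSME4, PSMA2, PSMG3 and PSMG1 in each library, by group (x axis). Points are libraries, and red lines show the mean and SD of 3. PSMD2 and PSME4 drop and PSMD11, PSMA2 and PSMG3 rise by Day 3, while PSMG1 rises at Day 10.

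From Day 7 to Day 10, 24 of the 34 core and cap genes rose and none fell in edgeR's test, against 13.9% of all genes called higher and 13.5% called lower at that step. The median log2 fold change of the 34 was 0.35, while that of all genes was -0.01. Leaving out each library of the 2 days in turn gave 22 to 25 higher and 0 lower, and scaling by library size alone gave 24 and 0. None of the 34 was called lower by DESeq2 either, and 3 of them had values below 0.

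All 6 ATPases were among those that rose from Day 7 to Day 10, as were 7 of 8 lid genes and 9 of 14 core genes. PSMC3 rose most, from 16.7, 18.0 and 17.6 CPM to 41.5, 34.9 and 29.1 CPM (1.01 ± 0.11, adjusted p = 2.45e-08). PSMD13 went from 22.6, 23.3 and 21.7 CPM to 34.8, 31.3 and 32.7 CPM (0.55 ± 0.11), and PSMA3 from 517, 501 and 494 CPM to 718, 756 and 758 CPM (0.56 ± 0.062). In each of these 3 genes every Day 10 library lay above every Day 7 library. The 3 chaperones of the base were not called, with values from -0.12 to 0.03, and neither were PSMB5 (0.11 ± 0.2) and PSMB7 (0.15 ± 0.12). Of the immune forms, PSME2 was called higher (0.34 ± 0.11), a call lost without Day 7 replicate 2 or Day 10 replicate 2 (0.29 and 0.3), PSMB8 was called lower with the limits given above, and PSMB9 was not called (-0.21 ± 0.17).

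The neighbouring steps went the other way, and both share a group of libraries with the step just described. From Day 3 to Day 7, 13 of the 34 were lower and none higher, against 8.76% of all genes called lower and 10.6% called higher, with a median of -0.2 and 33 of 34 values below 0. This count was the least stable, with 5 to 9 lower whichever of the 6 libraries was left out, and 20 under library size scaling. From Day 10 to Day 14, 15 were lower and 2 higher, against 24.3% and 24% of all genes, with 13 to 15 lower and 1 to 2 higher when 1 library was left out. The fall was largest in PSMD13, which returned to 21.1, 21.4 and 18.0 CPM (-0.71 ± 0.11, adjusted p = 1.61e-06), and the 2 that rose were PSMD4 (0.28 ± 0.056) and PSMD9. PSMD1, the other large scaffold of the base, was at 410, 423 and 414 CPM at Day 10 and 302, 262 and 261 CPM at Day 14 (-0.6 ± 0.062).

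The proliferation markers moved in the same directions at these steps. Their summed level was 795 to 869 CPM at Day 7, 1140 to 1210 CPM at Day 10 and 179 to 298 CPM at Day 14. From Day 7 to Day 10, 5 of 7 were higher, against 13.9% of all genes. From Day 10 to Day 14, 7 of 7 were lower, against 24.3%. Their part in the proteasome result was not tested. The sizes differed, since the median log2 fold change from Day 10 to Day 14 was -2.11 over the proliferation markers and -0.15 over the 34 core and cap genes. At Day 3 against the monolayer, all 7 markers were higher (all genes, 40.1%). The median there was 4.47 over the markers and -0.02 over the 34 genes.

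**Figure D5:**
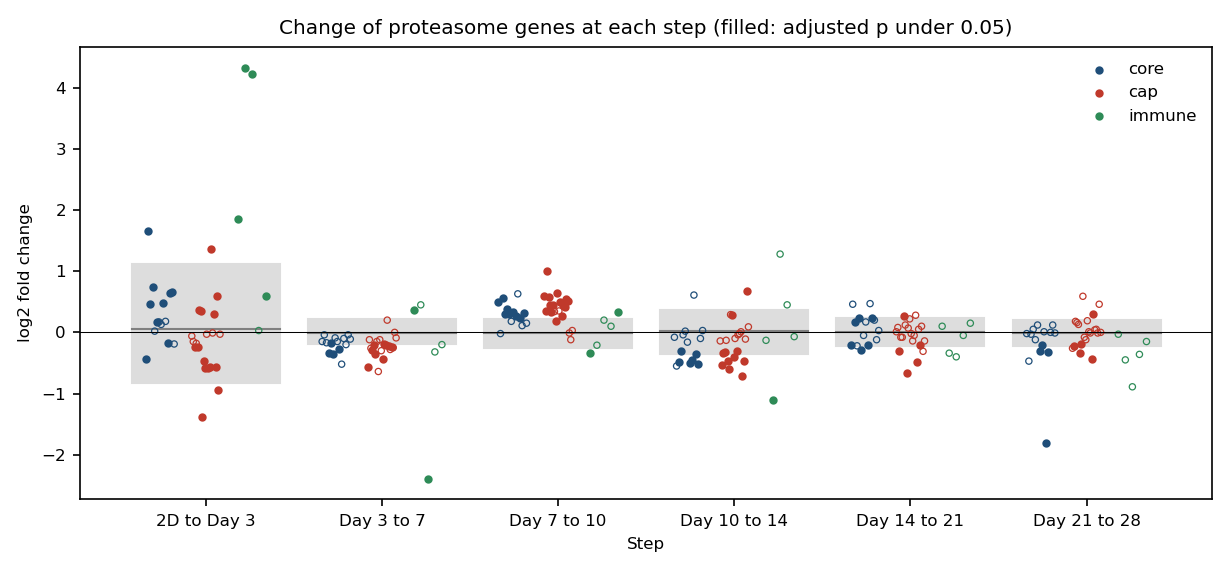
Log2 fold change (y axis) of each core, cap and immune gene at each successive step of the time course (x axis). Filled points have an adjusted p under 0.05, and grey bands show the middle 50% of all tested genes with a line at their median. At the step from Day 7 to Day 10, 24 core and cap points are filled and all of these are above 0.

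Promoters of 3 cap genes are shown. They had the largest rises from Day 7 to Day 10 among the cap genes whose window held CCGGAAG, so they were chosen for both. PSMC3, which rose most at that step, did not hold these letters. Windows are again 250 bases before to 50 after the start (RefSeq, GRCh38.p14), at chr14:90256303-90256602 (plus) for PSMC1, chr11:236726-237025 (plus) for PSMD13 and chr2:161308175-161308474 (plus) for PSMD14. Capitals mark CCGGAAG, the core letters of sites for ETS family factors, and CCAAT, on either strand. In PSMD14 the capitals CCAATTGG are a CCAAT and its reverse that overlap.
PSMC1: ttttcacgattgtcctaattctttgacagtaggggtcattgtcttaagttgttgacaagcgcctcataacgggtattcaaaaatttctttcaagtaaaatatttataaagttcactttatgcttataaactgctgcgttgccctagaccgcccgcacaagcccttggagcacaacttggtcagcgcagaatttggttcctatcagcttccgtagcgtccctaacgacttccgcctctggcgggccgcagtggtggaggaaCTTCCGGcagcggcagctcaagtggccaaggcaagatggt
PSMD13: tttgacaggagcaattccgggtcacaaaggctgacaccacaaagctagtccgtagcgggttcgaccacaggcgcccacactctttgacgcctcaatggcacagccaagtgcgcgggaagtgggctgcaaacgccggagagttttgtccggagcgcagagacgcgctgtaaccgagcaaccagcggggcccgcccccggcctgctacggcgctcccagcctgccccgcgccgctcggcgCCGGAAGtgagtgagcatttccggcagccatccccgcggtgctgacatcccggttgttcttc
PSMD14: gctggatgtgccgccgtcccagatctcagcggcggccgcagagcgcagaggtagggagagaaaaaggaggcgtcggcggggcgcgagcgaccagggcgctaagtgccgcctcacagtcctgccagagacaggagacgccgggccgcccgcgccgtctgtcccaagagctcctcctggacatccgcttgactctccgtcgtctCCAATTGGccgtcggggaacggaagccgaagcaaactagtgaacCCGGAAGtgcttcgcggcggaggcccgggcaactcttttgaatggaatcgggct
CCGGAAG was present in 10 of 19 cap promoters and in none of 10 core promoters, beside 10.3% of the 35116 promoters. In the 3 genes shown, which were chosen for holding it, it lies from 12 bases before to 10 bases after the start. Of the core genes, 9 of 14 were also called higher from Day 7 to Day 10. A link between the motif and the rise was not tested. The antioxidant response letters TGACNNNGC, the core of sites bound by NFE2L1 with small MAF proteins, were present in 13 of 39 proteasome promoters, with 1 of 10 in the core and 6 of 19 in the cap, and in 13.3% of all. CCAAT was present in 18 of 39 (34.6% of all), and TTCNNNGAA, the letters of STAT sites, in 4 of 39 (7.66% of all). GGGCGG, the GC box, was in 26 of 39 (45.0% of all) and is not capitalised.

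From Day 14 on, fewer proteasome genes were called at each step than from Day 10 to Day 14, and the same held over all genes. At the step to Day 21, 5 of 45 were higher and 8 lower, or 11.1% and 17.8% (all genes, 13.9% and 12.7%). At the step to Day 28, 2 were higher and 8 lower, or 4.44% and 17.8% (all genes, 10% and 14%). These counts rest on single libraries: without Day 21 replicate 2 the first step had 1 higher and 4 lower, without Day 21 replicate 3 it had 6 and 3, and without Day 28 replicate 2 the second step had 1 and 3. The F test for any change among the 6 spheroid days called 37 of 45 proteasome genes and 76.2% of all genes. Of the 45, 3 were called by this test and differed from Day 3 by 2-fold or more at a later day, against 22.9% of all genes. Changes between later days did not enter this count of 2-fold changes. Over the whole spheroid course, Day 28 against Day 3, 7 were higher and 14 lower, against 29.5% and 30.2% of all genes. The core accounted for 1 of the higher and 6 of the lower, and the cap for 5 and 5.

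Genes that work with the proteasome were mostly lower in spheroids. Of 16 partner genes (assembly factors, ubiquitin receptors, shuttles and proteasome-bound enzymes), 2 were higher and 12 lower at Day 3, and again 2 and 12 at Day 28, with a median log2 fold change of -0.65 and -0.64 against 0.06 and 0.08 over all genes. For this and the following lists, the shares of all genes called were 40.1% higher and 37.8% lower at Day 3, and 38.5% higher and 34.8% lower at Day 28. UCHL5, a deubiquitinase that sits on the cap, rose most (1.65 ± 0.12 at Day 3). ZFAND5, a ubiquitin-binding activator, was lowest at Day 3 (-1.79 ± 0.12), and the shuttle UBQLN2 at Day 28 (-1.41 ± 0.12). Of 6 ubiquitin and E1 genes, UBA1, the main activating enzyme, was higher at Day 3 (0.89 ± 0.13) and 4 were lower.

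The genes that control NFE2L1 activity, with NFE2L1 itself, had 1 higher and 8 lower of 10 at Day 3 (median -0.94) and 3 higher and 7 lower at Day 28 (median -0.5). NFE2L1 was at 409, 382 and 377 CPM in the monolayer, 154, 162 and 155 CPM at Day 3 and 263, 256 and 264 CPM at Day 28, a log2 fold change of -1.31 ± 0.069 and then -0.58 ± 0.068. The small MAF gene MAFK, a dimer partner, was at 875, 830 and 831 CPM in the monolayer, 56.5, 52.1 and 52.4 CPM at Day 3 and 119, 129 and 123 CPM at Day 28. DDI2, the protease that activates NFE2L1, was the one gene higher at Day 3 (0.78 ± 0.076). For NFE2L1 and MAFK, every Day 3 and Day 28 library lay below every monolayer library. In the same comparison at Day 3, 24 of the 45 proteasome genes were above 0 and 21 below. From Day 3 to Day 28, 9 of the 10 NFE2L1 control genes were higher (median 0.57), against 29.5% of all genes. Between the same days 7 proteasome genes were higher and 14 lower. A link between the NFE2L1 control genes and the proteasome genes was not tested.

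The antigen presentation list, of which 15 of 17 genes were tested, had 5 higher and 4 lower at Day 3 and 9 higher and 1 lower at Day 28, with medians of -0.06 and 0.44. ERAP2, which trims peptides for class I molecules, rose most at Day 3 (3.93 ± 0.14), and HLA-E was the largest fall (-0.96 ± 0.095). At Day 28 TAP2 was the largest rise, and B2M, the class I light chain, the one gene lower (-0.33 ± 0.064). NLRC5, a regulator of class I genes, was not called at either day (0.44 ± 0.45 and -0.03 ± 0.48).

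Of the interferon response list, 23 of 25 genes were tested. At Day 3, 5 were higher and 11 lower (median -0.36), and at Day 28, 4 and 10 (median 0). IFI6 rose most, from 0.297, 0.102 and 0.0976 CPM to 1.91, 2.28 and 3.4 CPM (4.02 ± 0.45), whereas IFIT1 was at 2.58, 2.57 and 3.35 CPM in the monolayer and 0.547, 0.415 and 0.567 CPM at Day 3 (-2.46 ± 0.87). IRF1, a direct activator of immune proteasome genes, was lower at Day 3 (-1.01 ± 0.11) and Day 28 (-0.65 ± 0.11). PTPRC, the pan-leukocyte marker, was at 0 in all libraries, and CSF1R at or below 0.0808 CPM, while CD14 rose as given above. Of the 8 immune cell markers 4 were tested, and 3 of these were higher and 0 lower at Day 3 (all genes, 40.1% and 37.8%). At Day 28, 3 were higher and 1, CD68, was lower (all genes, 38.5% and 34.8%). The part of any such cells in the immune forms' values was not tested.

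Of the 2 namesakes that the rule also found, PSMC3IP, a factor of meiotic recombination, was at 64.9, 57.1 and 54.9 CPM in the monolayer, 155, 158 and 146 CPM at Day 3, 147, 164 and 131 CPM at Day 10 and 23.5, 24.4 and 28.5 CPM at Day 28. It was thus above the monolayer at Days 3 and 10 and below it at Day 28 (-1.21 ± 0.15), without overlap. PSME3IP1 was above the monolayer at Day 3 (0.79 ± 0.099) and Day 28 (0.63 ± 0.1).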

How the data were processed

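TempO-Seq read out 100 ng of total RNA per library from 21 HepG2/C3A libraries. The authors deposited raw counts per gene symbol, whole numbers whose totals differ between libraries. GRCh38.p13, STAR 2.7.10b, fastp 0.23.2, bcl2fastq 2.20.422 and DESeq2 1.38.0 are listed, without roles, per the submitters' processing notes. The sources used here do not state how a gene with more than 1 detector oligo was summed, and 12 members with 32 named pseudogenes may share counts with copies.

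Genes passing filterByExpr (minimum count 10) were kept, 12345 in all, and the rest held 0.0108% of counts. One robust quasi-likelihood model over all libraries was used (edgeR 4.0.16 in R 4.3.3, TMM scaling, biological coefficient of variation 9.62%). Calls mean an adjusted p under 0.05 by Benjamini-Hochberg across those genes. Each SE was derived as the log2 fold change divided by the root of its F statistic. CPM values use library sizes after TMM scaling. In counts simulated for Day 3 against the monolayer over the same 12345 genes, 44 of 50 genes changed 2-fold up and 39 of 50 changed 1.5-fold up were called. Of genes changed down, 42 of 50 at a fold of 0.5 and 36 of 50 at 0.667 were called. The simulation gave all genes the same spread and changed far fewer genes than were called in the data, so its shares may not hold there. Separate cultures are not named for the labelled biological replicates, so a p-value here reflects library-to-library spread that may be technical. Same-numbered libraries did not deviate together.

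RefSeq promoters (GRCh38.p14) were found for 39 members. Alternatives were DESeq2's size factors, library size alone, no filter, DESeq2 1.42.0, a replicate block, the compared groups only and leaving out each library. Per-library values are given for the protease subunits, their immune forms, PSME1 and PSME2, and for the gene with the largest and smallest fold change of each class in 3 comparisons (Day 3 or Day 28 with the monolayer, Day 14 with Day 10). Other genes given by library were chosen after their values were seen. The members, classes and lists were chosen with earlier results of these data known.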

Additional observations from a re-analysis of the deposited data

Results flagged for a closer look

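In 3 genes the difference from the monolayer was called in opposite directions at Day 3 and Day 28, and the 2 days differed in a direct test. PSMB2 was above the monolayer at Day 3 and below it at Day 28, with a log2 fold change of -0.66 ± 0.069 between those days (adjusted p = 6.09e-10, edgeR). PSMC6, at 0.37 and -0.19 against the monolayer, changed by -0.56 ± 0.075 (adjusted p = 9.91e-08). The namesake PSMC3IP changed by -2.58 ± 0.15 (adjusted p = 2.76e-11). In PSMB2 and PSMC6 the late call depended on the scaling, since library size alone gave 0.04 and 0.02 at Day 28 against the monolayer, neither of them called.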

How the results depend on the processing

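Scaling by library size alone moved most values against the monolayer. It gave 17 higher and 13 lower of 45 at Day 7, 9 lower at Day 21, and 19 higher and 8 lower at Day 28, and between days 0 higher at Day 7 and 3 higher at Day 21. The plotted class profile, the mean over 3 libraries of each library's class median (not the median of fitted fold changes), became 0.44, 0.17, 0.46, 0.3, 0.26 and 0.17 for the core at Days 3, 7, 10, 14, 21 and 28, the last reversed, and 0.04, -0.29, 0.14, 0.04, -0.07 and 0.06 for the cap, reversed at Days 3, 10, 14 and 28. PSMF1 and PSMB4 reversed at Day 3 (0.14 and 0.05). Against Day 3, 2 genes were higher at Day 7 with no filter, with DESeq2 and with the compared groups only, where Day 21 had 3 higher than Day 14 and Day 28 had 4 lower than Day 21. A prior count of 0 gave 3.71 and 2.49 for the gain of PSMB9 over PSMB6 at Days 10 and 21.

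Leaving out 1 library gave 10 to 16 lower at Day 21 (10 without Day 21 replicate 3) and 9 to 16 lower at Day 28 (9 without Day 28 replicate 3) against the monolayer. For steps it gave 0 to 1 higher and 6 to 10 lower at Day 7 (6 without Day 3 replicate 2, 10 without Day 3 replicate 3, and 7 to 9 otherwise), 0 to 1 lower at Day 10, 1 to 2 higher at Day 14, 1 to 7 higher and 3 to 7 lower at Day 21 (5 of the 6 libraries, all but Day 21 replicate 1, moved 1 of these by over 1.5 times), and 1 to 4 higher and 3 to 9 lower at Day 28 (all but Day 28 replicate 1 did so). The causes were not tested. With the replicate block, 19 were higher and 13 lower at Day 3 and 29 higher at Day 10 against Day 7, and every count of called proteasome genes stayed within 1.5 times the value without it, although the numbers are not known to pair cultures. Of 1317 single-gene values under alternatives, 1250 kept their direction and side of the threshold. Few counts limit PSMB10, PSMG4, PSMA2 and PSME1.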
